A study of Homo sapiens with 15 samples.

Results

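ADGRG1, ALPK3, ENPP2, GATA6 and GPRC5A are 5 genes whose RNA moved in the same direction in lung fibroblasts that were co-cultured with either of 2 kinds of small cell lung cancer (SCLC) cell. GPRC5A, GATA6 and ALPK3 were higher, and ENPP2 and ADGRG1 were lower, with both partners. They are 5 of the 16382 genes listed for the fibroblasts, and they were picked by name for this shared direction. Their changes against fibroblasts grown alone are therefore given as a description, without a test. The choice also set a lower limit on the size of each change. Picking by direction did not use the response of the genes in the cancer cells or the other genes of their pathways. Earlier results of these data were known, however, when the genes and the pathway lists were chosen.

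The fibroblasts were of the human lung line MRC5, and the partners were H69, a neuroendocrine (NE) SCLC line, and H196, a non-NE one. The fibroblast groups were MRC5_Mo, cultured separately, MRC5_CoH69, which shared its medium with H69 cells, and MRC5_CoH196, which did so with H196 cells. The cancer cell groups, H196_Mo and H196_Co, were H196 cells without and with MRC5 cells. Culture lasted 7 days, and partners were kept apart by a transwell membrane with 0.4 µm pores. Each group had 3 libraries of oligo(dT)-enriched mRNA, 15 in all. No agent, transgene or deletion distinguished the groups, and each cell type was represented by 1 line. The MRC5 cells were cultured in MEM and the SCLC lines in RPMI medium, and the sources used here do not name the medium of the co-cultures. A difference in medium between separate culture and co-culture therefore cannot be told apart from the partner. H69 cells themselves were not analysed here. The replicates were prepared in parallel, and nothing in the sources used here says whether they were separate cultures, so the errors measure the spread between these libraries, which may be technical.

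The 5 genes have different jobs. ENPP2 encodes autotaxin, a secreted enzyme that makes the lipid mediator lysophosphatidic acid (LPA), which acts on the LPAR receptors and is known for driving fibroblast migration and lung fibrosis. GATA6 is a zinc-finger transcription factor of endoderm, heart and lung. ADGRG1, also called GPR56, is an adhesion G protein-coupled receptor whose known ligands include collagen III, and GPRC5A is an orphan receptor first described as a retinoic acid-induced gene and known as a tumour suppressor of lung epithelium. ALPK3 is an alpha-kinase family protein of heart and skeletal muscle, where loss of the gene causes cardiomyopathy.

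In the deposited annotation (GRCh38.p13), GPRC5A (gene ID 9052) spans bases 12891562 to 12930937 of chromosome 12, and GATA6 (2627) spans bases 22169456 to 22205229 of chromosome 18. ALPK3 (57538) lies at 84817356 to 84873479 on chromosome 15 and ADGRG1 (9289) at 57619535 to 57665567 on chromosome 16, while ENPP2 is placed where its values are given. All 5 are protein-coding genes on different chromosomes, so they are not a cluster of neighbours. The table places 3 of the 5 products (ADGRG1, ENPP2 and GPRC5A) at the plasma membrane, against 22.5% of the tested genes. G protein-coupled receptor activity is given for ADGRG1 and GPRC5A, against 1.11% of the tested genes. None of the 5 belongs to the Hallmark hypoxia set, which holds 1.34% of the tested genes.

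A RefSeq promoter window, from 250 bases before to 50 bases after a transcription start, was matched for 3 of the 5 genes (ADGRG1, ALPK3 and GATA6, build GRCh38.p14). The stretches before the gene start of ALPK3 and GATA6 are shown because these are the genes with a window among those that rose. The ALPK3 stretch covers all 250 bases before the transcription start. The GATA6 stretch was cut at the annotated gene start, which lies before the transcription start of its window. It therefore does not cover the same region as the ALPK3 stretch. Capitals mark the TATA box core TATAAA, a motif that was added to the search after the sequences had been seen.
ALPK3, chr15:84817106-84817355, plus strand: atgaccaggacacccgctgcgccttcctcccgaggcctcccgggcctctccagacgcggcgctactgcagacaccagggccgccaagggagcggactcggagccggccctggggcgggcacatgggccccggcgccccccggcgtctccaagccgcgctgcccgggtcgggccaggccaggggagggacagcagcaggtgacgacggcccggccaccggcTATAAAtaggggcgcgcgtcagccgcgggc
GATA6, chr18:22169339-22169455, plus strand: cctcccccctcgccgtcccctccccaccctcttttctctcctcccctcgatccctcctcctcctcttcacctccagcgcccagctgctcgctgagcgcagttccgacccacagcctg
In ALPK3 the first base of TATAAA lay at -30 from the transcription start. Of 35116 RefSeq promoter windows of this length, 11.5% held TATAAA on either strand, and ALPK3 was the only one of the 3 genes that did. The ALPK3 stretch is also rich in G and C, at 76.0% against a median of 58% over all promoters. The shorter GATA6 stretch, at 68.4%, covers only part of the region that the median covers. The letters GATAA, the core read by GATA factors, were in 22.7% of all windows. The nuclear receptor half-site AGGTCA was in 13.8%, and the hypoxia-inducible factor core ACGTG in 21.4%. None of these motifs was found on either strand in the windows of the 3 genes.

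Totals ran from 18476890 to 19170560 counts in the MRC5 libraries and from 16073597 to 17358349 in the H196 libraries. All 5 genes passed the filter on low counts in the MRC5 table, which left 12819 genes for testing. Levels are given as CPM, counts relative to the TMM-scaled library total, and, wherever genes are compared with each other, as FPKM, which also divides by gene length. A gene was called when its Benjamini-Hochberg adjusted p (edgeR quasi-likelihood test) was under 0.05 and its absolute log2 fold change above 0.58. By that rule 31.9% of the tested genes were called in MRC5_CoH196 against MRC5_Mo, 17.2% higher and 14.7% lower. On log2(FPKM + 1) the share of higher genes among the calls fell from 53.9% to 30.5%, and the median change of all genes was -0.13. In MRC5_CoH69 against MRC5_Mo 0.554% were called, 0.421% higher and 0.133% lower. All 5 genes are among the calls of both comparisons, which is how they were chosen. The 2 comparisons share the MRC5_Mo libraries. Only 32 genes, 0.25% of those tested, were called in the same direction in both, 25 higher and 7 lower, and 8 were called in opposite directions.

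**Figure D1:**
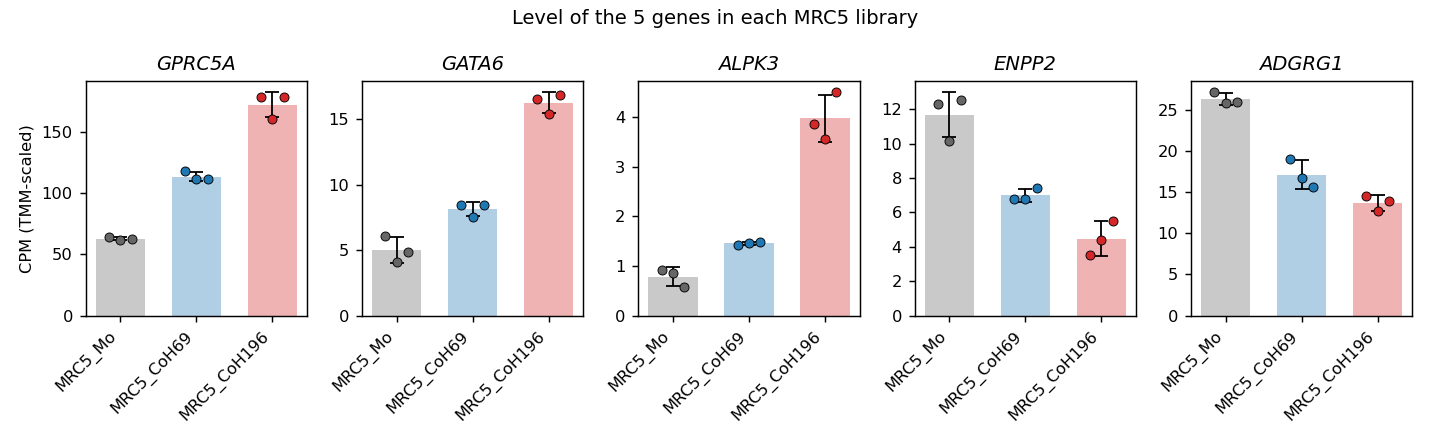
TMM-scaled CPM (vertical axis, from 0) of each of the 5 genes in the 3 MRC5 groups. Points are libraries, bars are means and error bars are 1 SD over 3 libraries; in each panel the MRC5_CoH69 libraries lie between the MRC5_Mo and the MRC5_CoH196 libraries.

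The receptors moved in opposite directions. GPRC5A, the most abundant of the 5 genes, was at 64.2, 61.7 and 62.6 CPM in replicates 1 to 3 of MRC5_Mo. It was at 118, 111 and 111 CPM in MRC5_CoH69 and at 178, 160.4 and 178 CPM in MRC5_CoH196. The 3 groups did not overlap, and H69 took the gene about midway to its level with H196. The log2 fold change was 0.85 (SE 0.050, n = 3 against 3) with H69 and 1.45 (SE 0.049) with H196. Among all tested genes, the libraries did not overlap for 25.7% in the comparison with H69 and for 75.5% in that with H196. With totals of 3684 counts in MRC5_Mo and 9039 in MRC5_CoH196, GPRC5A had the smallest standard errors of the 5.

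ADGRG1 showed the reverse order. Its 3 libraries were at 27.1, 25.9 and 26.0 CPM in MRC5_Mo, at 18.99, 16.7 and 15.6 CPM in MRC5_CoH69 and at 14.5, 12.7 and 14.0 CPM in MRC5_CoH196. The highest MRC5_CoH196 library lay below the lowest MRC5_CoH69 library by about 1 CPM, so the co-cultures were close to each other and both far from the separate culture. On the log2 scale it changed by -0.62 (SE 0.073) with H69 and -0.94 (SE 0.077) with H196. With H69 it lay just past the limit of 0.58. Without MRC5_CoH69 replicate 3 its change was -0.56, short of that limit.

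ENPP2 (gene ID 5168, bases 119516254 to 119673404 of chromosome 8), the LPA-producing enzyme, was at 12.3, 10.2 and 12.5 CPM in MRC5_Mo. It was at 6.77, 6.75 and 7.43 CPM in MRC5_CoH69 and at 3.52, 4.37 and 5.53 CPM in MRC5_CoH196. The groups did not overlap, but the MRC5_CoH196 libraries were widely spread for their level, with a coefficient of variation of 22.5% against 5.54% in MRC5_CoH69. The log2 fold change was -0.74 (SE 0.12) with H69, a level 1.67-fold lower, and -1.38 (SE 0.13) with H196, a level 2.61-fold lower. In bulk RNA, fewer cells of a kind and less RNA per cell cannot be told apart.

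GATA6, the transcription factor, was at 6.08, 4.12 and 4.85 CPM in MRC5_Mo, at 8.45, 7.53 and 8.45 CPM in MRC5_CoH69 and at 16.5, 15.4 and 16.9 CPM in MRC5_CoH196. The groups did not overlap. Replicate 1 stood highest among the separate cultures, and the MRC5_CoH196 libraries were far above all others. GATA6 changed by 0.70 (SE 0.12) with H69 and 1.70 (SE 0.11) with H196 on the log2 scale. It lay between 0.57 (without MRC5_Mo replicate 2) and 0.86 (without MRC5_Mo replicate 1) with H69 when 1 library was left out. On log2(FPKM + 1) the changes were 0.46 and 1.11.

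ALPK3 was scarce, so its reads are given as counts. It had 18, 17 and 11 counts in MRC5_Mo, 28, 28 and 29 in MRC5_CoH69 and 68, 62 and 79 in MRC5_CoH196. The MRC5_CoH196 libraries stood clear of the rest. The MRC5_Mo and MRC5_CoH69 libraries did not overlap in counts, but the exact 95% Poisson intervals of single libraries did, reaching up to 28.4 counts in MRC5_Mo and down to 18.6 in MRC5_CoH69. Summed over 3 libraries, the counts were 46 (33.7 to 61.4) in MRC5_Mo, 85 (67.9 to 105) in MRC5_CoH69 and 209 (182 to 239) in MRC5_CoH196. These intervals cover counting error only, and the reads had no molecular identifiers. The log2 fold change was 0.89 (SE 0.25) with H69 and 2.33 (SE 0.21) with H196, and these errors were the largest of the 5. With H69 it was at 0.70 without MRC5_Mo replicate 3 and at 0.47 on log2(FPKM + 0.1). ALPK3 fell out of the calls in MRC5_CoH69 under 8 of 17 alternatives, among them leaving out MRC5_Mo replicate 2 or 3 or any 1 of the MRC5_CoH69 libraries. On log2(FPKM + 1), a scale that flattens scarce genes, its changes were 0.09 with H69 and 0.34 with H196.

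**Figure D2:**
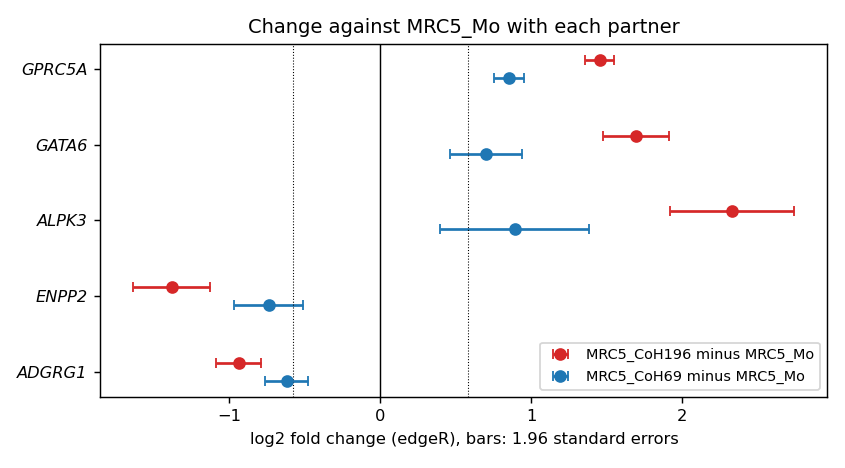
Log2 fold change against MRC5_Mo (horizontal axis) of each gene with H196 (red) and with H69 (blue); bars are 95% intervals and dotted lines mark the limit of 0.58. Every gene lies on the same side of 0 with both partners and farther from 0 with H196.

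The direction was alike with both partners, but the size was not. The log2 fold change with H69 was 66.2% of that with H196 for ADGRG1, 58.6% for GPRC5A, 53.5% for ENPP2, 41.3% for GATA6 and 38.1% for ALPK3. MRC5_CoH196 minus MRC5_CoH69 came to 1.44 (95% interval 1.08 to 1.81) for ALPK3, 0.995 (0.80 to 1.20) for GATA6 and 0.60 (0.51 to 0.69) for GPRC5A on the log2 scale. For the genes that fell it came to -0.64 (-0.92 to -0.37) for ENPP2 and -0.32 (-0.48 to -0.16) for ADGRG1. These differences are built from the same contrasts that chose the genes and carry no test. All 3 MRC5_CoH69 libraries lay between the MRC5_Mo and the MRC5_CoH196 libraries, without overlap, for all 5 genes. That order held for 1780 of the 12819 tested genes, or 13.9%, and for 24 of the 32 genes called in the same direction with both partners. H196 gave the larger change for 28 of those 32, and in this ordering the 5 genes were like most of the 32. In MRC5_CoH196 against MRC5_CoH69 as a whole, 28.2% of genes were called, 15.2% higher and 13.1% lower, and the libraries did not overlap for 73.1%.

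Per gene length, the order of the 5 genes differed between the groups. In MRC5_Mo it ran from GPRC5A (10.4 ± 0.204 FPKM, SD, n = 3) through ADGRG1 (7.33 ± 0.165), ENPP2 (4.31 ± 0.478) and GATA6 (1.57 ± 0.309) to ALPK3 (0.0833 ± 0.0208), with no overlap between neighbours. With H69, ENPP2 had come down to 2.56 ± 0.168 FPKM and GATA6 had come up to 2.52 ± 0.177 FPKM, and their libraries overlapped. With H196, GATA6 at 4.50 ± 0.155 FPKM stood above ADGRG1 at 3.38 ± 0.207 FPKM and ENPP2 at 1.46 ± 0.320 FPKM, again without overlap. GPRC5A stayed first, at 25.3 ± 1.13 FPKM and above 78.3% of the tested genes. ALPK3 stayed last, at 0.37 ± 0.0361 FPKM and above only 5.66% of them.

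RNA from the partner cells was looked for in the MRC5 libraries. All 10 fibroblast markers on the list, collagens, DCN, LUM, PDGF receptors, THY1, FAP and VIM, were present in each MRC5 group. They summed to 32282 to 34873 CPM in MRC5_Mo, 35036 to 36627 CPM in MRC5_CoH69 and 23647 to 24539 CPM in MRC5_CoH196, so the MRC5_CoH196 libraries were lower without overlap. Against MRC5_Mo, COL1A1 (-1.57) and COL3A1 (-2.09) were called lower with H196, and PDGFRB (0.67) and VIM (0.63) were called higher. Of 9 NE SCLC markers, 5 were analysed (CHGB, SYP, NCAM1, DLL3 and SCG3), and NEUROD1, INSM1, CHGA and GRP were not analysed here. The 5 together summed to only 0.966 to 1.33 CPM in MRC5_Mo, 0.628 to 1.43 CPM in MRC5_CoH69 and 0.911 to 1.32 CPM in MRC5_CoH196, and SCG3 was at 0 in MRC5_CoH69. A set of 95 genes, each of which reached 20 CPM in all H196 libraries while staying below 0.5 CPM in all separate MRC5 cultures, summed to 8.58 to 9.51 CPM in MRC5_Mo, 8.11 to 10.1 CPM in MRC5_CoH69 and 25.9 to 65.7 CPM in MRC5_CoH196. The MRC5_CoH196 median was 0.715% of the median in H196_Co. GATA6 was at 5.48 FPKM in H196_Co, at 4.50 FPKM in MRC5_CoH196 and at 1.57 FPKM in MRC5_Mo. GPRC5A was 4.53 times as high in MRC5_CoH196 as in H196_Co, and ALPK3 was at 0.02 FPKM in H196_Co, below its level in each MRC5 group. In MRC5_CoH196, MRC5_CoH69 and MRC5_Mo the 8 epithelial markers summed to 143 to 156, 147 to 166 and 123 to 130.2 CPM, the 6 endothelial markers to 44.2 to 46.3, 33.0 to 35.1 and 26.0 to 28.9 CPM, and 4 immune markers to 113 to 126, 55.4 to 68.5 and 70.2 to 78.5 CPM. The endothelial and immune sums were almost wholly 1 gene each, TEK at 44.6 of the endothelial CPM and CD68 at 121 of the immune CPM in MRC5_CoH196, while the other members were below 1 CPM. PTPRC was at 0 in MRC5_CoH196, PECAM1 in MRC5_CoH69 and CDH5 in MRC5_CoH196 and MRC5_Mo. Whether RNA from partner cells, or the cells that these lists mark, had a part in the changes of the 5 genes was not tested.

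A list of LPA pathway genes was set beside ENPP2. It also held relatives of ENPP2 from the ENPP family, of which ENPP1 and ENPP4 were tested and enter the counts and the median. This list and those below were chosen with earlier results of these data known, so their shares of calls are a description. In MRC5_CoH196 against MRC5_Mo, 1 of 12 tested genes was called higher and 2 lower, against 17.2% and 14.7% of all tested genes. The list had a median log2 fold change of -0.41 against -0.00 over all genes. ENPP1, a related ectoenzyme that makes pyrophosphate from ATP, fell from 28.1 ± 1.84 to 10.4 ± 0.914 CPM (log2 fold change -1.43, adjusted p = 2.39e-14). Among the receptors, LPAR6 fell by 0.66 (adjusted p = 0.00534) and LPAR2 rose by 0.81 (adjusted p = 0.000206) on the log2 scale. The call of LPAR2 was lost on both FPKM scales, and that of LPAR6 on log2(FPKM + 1). LPAR1, by far the most abundant LPA receptor here at 121 ± 3.44 FPKM in MRC5_Mo, was at 75.7 ± 2.14 FPKM in MRC5_CoH196 (LPAR1 was singled out after its values had been seen). On TMM-scaled counts it went from 395 ± 11.4 to 278 ± 7.15 CPM, a log2 fold change of -0.51 that did not reach the limit of 0.58. On both FPKM scales it was called lower, at -0.68 on log2(FPKM + 0.1). With H69 no gene of this list was called by edgeR, by DESeq2 or by limma on either FPKM scale, although 5 had an unadjusted p under 0.05 in edgeR, and ENPP1 was at -0.54. Without MRC5_Mo replicate 1, ENPP1 was at -0.59 and was called.

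Of 10 tested GATA factors and partners of GATA proteins, 5 were called higher and 1 lower with H196, where 17.2% and 14.7% of all tested genes were called. The list median was 0.61 against -0.00 over all genes. The remaining 4 were not called, with GATA2 at 0.21, MEF2C at 0.31, ZFPM2 at 0.54 and HAND2 at -0.66 on the log2 scale. DESeq2 called 6 of the 10 and limma on log2(FPKM + 1) called 3, and between 2 and 5 were called higher over the alternatives. TBX5, a T-box factor that works with GATA proteins in heart and lung, rose from 34.6 ± 0.103 to 76.7 ± 2.79 CPM (log2 fold change 1.15, adjusted p = 9.80e-16). MEF2D (1.11, adjusted p = 3.06e-16) and MEF2A (0.79, adjusted p = 5.83e-13), MADS-box factors of muscle gene programmes, and GATA3 (0.85, adjusted p = 0.00954) also rose. GATA3 was scarce, at 0.802 ± 0.113 CPM in MRC5_Mo and 1.45 ± 0.274 CPM in MRC5_CoH196. Its call was lost on both FPKM scales, and that of MEF2A on log2(FPKM + 1). Outside the naming rule, and named like the 4 uncalled genes after their values were seen, the GATA cofactor ZFPM1 rose by 0.68 and SRF, a serum response factor, fell by 0.76. ZFPM1 was no longer called without MRC5_Mo replicate 1 or on log2(FPKM + 1). With H69 none of the 10 was called by edgeR, DESeq2 or limma, 1 had an unadjusted p under 0.05, and the median was 0.05. Between MRC5_CoH196 and MRC5_CoH69, where 28.2% of all tested genes were called, TBX5, MEF2D and MEF2A differed by 1.15, 1.03 and 0.75 (edgeR adjusted p = 1.38e-15, 1.60e-15 and 1.89e-12). GATA3 differed by 0.67 (edgeR adjusted p = 0.0339), a call that was lost under 7 of 17 alternatives. These genes were named for their calls with H196, and the same MRC5_CoH196 libraries entered here, so the differences are a description. On the FPKM scales the difference for MEF2A was no longer called.

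For ADGRG1, 10 other adhesion receptors were tested. With H196, 1 was called higher and 2 lower, against 17.2% and 14.7% of all tested genes. On the log2 scale ADGRD1 rose by 1.58 (adjusted p = 2.20e-05) and ADGRA3 fell by 0.91 (adjusted p = 1.69e-12) with H196. ADGRD1 was scarce, at 0.562 ± 0.182 CPM in MRC5_Mo and 1.69 ± 0.306 CPM in MRC5_CoH196. ADGRL2 fell by 0.59 (adjusted p = 6.82e-07), a call that was lost without MRC5_CoH196 replicate 2 or MRC5_Mo replicate 2. The calls of ADGRD1 and ADGRL2 were also lost on log2(FPKM + 1). The family median was 0.00. Of 10 genes for ligands and effectors of ADGRG1, only COL3A1 was called with H196, where 31.9% of all tested genes were called. COL3A1 encodes the collagen III chain that ADGRG1 binds, and it fell from 1296 ± 104 CPM in MRC5_Mo to 304 ± 13.7 CPM in MRC5_CoH196 (log2 fold change -2.09, adjusted p = 5.92e-21). With H69 it was at 1418 ± 80.4 CPM (0.13, adjusted p = 0.141). ADGRG1 was thus lower in both co-cultures, while the RNA of its collagen ligand was lower in MRC5_CoH196 than in MRC5_CoH69 (log2 difference -2.22, adjusted p = 2.33e-21). With H69 no gene of either list was called by edgeR, DESeq2 or limma, and 2 in each had an unadjusted p under 0.05.

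GPRC5A was set beside the other GPRC5 receptors and genes of retinoic acid metabolism and signalling. With H196, 8 of 13 tested genes were called higher and 0 lower, against 17.2% and 14.7% of all tested genes, at a median of 0.66, and 11 had an unadjusted p under 0.05. DESeq2 called 8 of the 13, and limma on log2(FPKM + 1) called 6. ALDH1A3, which makes retinoic acid, rose from 2.80 ± 0.312 to 14.5 ± 1.12 CPM (log2 fold change 2.37, adjusted p = 3.95e-15). RARRES2, the chemerin gene (2.23, adjusted p = 4.46e-06), DHRS3, a retinaldehyde reductase (2.14, adjusted p = 5.73e-15), and CRABP2, which carries retinoic acid to the nucleus (1.48, adjusted p = 1.70e-13), rose as well. With H69, 3 of the 13 were called and all were higher, against 0.421% of all tested genes. Since the list was chosen with earlier results of these data known, its shares of calls are a description and test nothing about retinoic acid. DHRS3 went from 5.19 ± 1.25 to 20.9 ± 0.460 CPM (2.01, adjusted p = 5.92e-12), and RARRES1, a retinoid-responsive gene, from 1.04 ± 0.276 to 3.54 ± 0.940 CPM (1.76, adjusted p = 1.48e-05). GPRC5B, a relative of GPRC5A, was at 0.59 (adjusted p = 8.35e-06). Its call was lost on both FPKM scales and without MRC5_CoH69 replicate 3 or MRC5_Mo replicate 2. On either FPKM scale limma called 2 of the 13 with H69. No difference between the partners was called for DHRS3 (MRC5_CoH196 minus MRC5_CoH69 0.13, SE 0.087, adjusted p = 0.173), and RARRES1 was lower with H196 than with H69 by 1.05 (listed as -1.05, adjusted p = 0.000120). RARRES1 and DHRS3 are among the 32 genes called in the same direction with both partners. The H196 call of RARRES1 (0.72, adjusted p = 0.0209) was lost under 4 of 17 alternatives, both FPKM scales and leaving out MRC5_CoH196 replicate 2 or MRC5_Mo replicate 3.

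For ALPK3, 9 genes of other alpha-kinases and of the sarcomeric M-band were tested. With H196, 1 of the 9 was called higher and 0 lower, against 17.2% and 14.7% of all tested genes, and 4 had an unadjusted p under 0.05. The gene called was MYOM1, the M-band protein myomesin, which rose by 1.44 on the log2 scale (adjusted p = 0.000450) and was scarce, at 0.494 ± 0.238 CPM in MRC5_Mo and 1.35 ± 0.425 CPM in MRC5_CoH196. DESeq2 also called 1 of the 9, and limma on log2(FPKM + 1) called 0. With H69 no gene of the list was called by edgeR, DESeq2 or limma, and 2 had an unadjusted p under 0.05. The list median was -0.02 with H196 and 0.01 with H69.

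**Figure D3:**
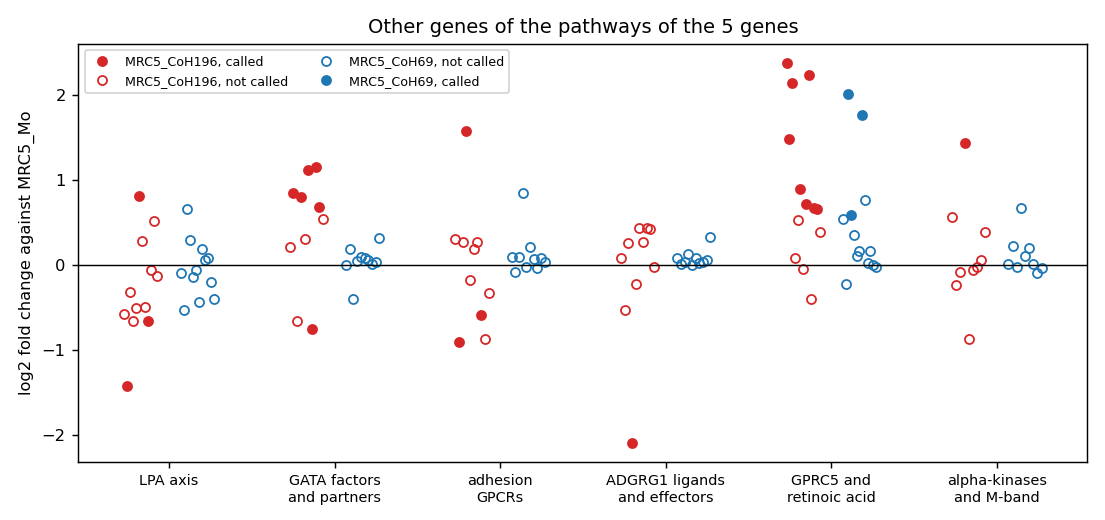
Log2 fold change against MRC5_Mo (vertical axis) of the other tested genes of 6 lists tied to the 5 genes, with H196 (red) and with H69 (blue); filled points were called. With H196 the GATA and retinoic acid lists hold 5 and 8 genes called higher, and with H69 only the retinoic acid list holds calls, 3 in all. Of all tested genes 17.2% were called higher with H196 and 0.421% with H69.

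The genes whose pair of changes lay nearest to each of the 5, by Euclidean distance over the 2 log2 fold changes among 12067 genes with a mean of at least 1 CPM, are given as a description, and all 9 MRC5 libraries entered. Nearest to ENPP2 were VGF, a secreted neuropeptide precursor (-1.35 with H196 and -0.71 with H69), BOLA2B (-1.53 and -0.89), whose reads cannot be told from those of its near-identical copy, and its relative ENPP1 (-1.43 and -0.54). ALPK3 was nearest to TG (2.38 and 0.90), EML6 (2.25 and 0.90) and the transcription factor RUNX3 (2.21 and 1.02), all of them at about 3 CPM or a little more in MRC5_CoH196. GATA6 was nearest to PCED1B (1.78 and 0.66), the phosphodiesterase PDE11A (1.58 and 0.76) and LMCD1 (1.61 and 0.59), which is known as a GATA6 corepressor and reached 67.9 CPM with H196. GPRC5A was nearest to TMEM178B (1.42 and 0.81), the receptor NPY4R (1.497 and 0.80), which has a near-identical copy, and the adhesion receptor ADGRD1 (1.58 and 0.84), each at under 3 CPM against 172 for GPRC5A. ADGRG1 was nearest to AKR1C1, an aldo-keto reductase (-0.94 and -0.51), and to PTGES3L-AARSD1 (-0.96 and -0.56) and GPR75-ASB3 (-0.96 and -0.46), read-through transcripts that share sequence with other genes. Of these 15 genes, VGF, BOLA2B, RUNX3, PCED1B and LMCD1 were called in both comparisons.

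**Figure D4:**
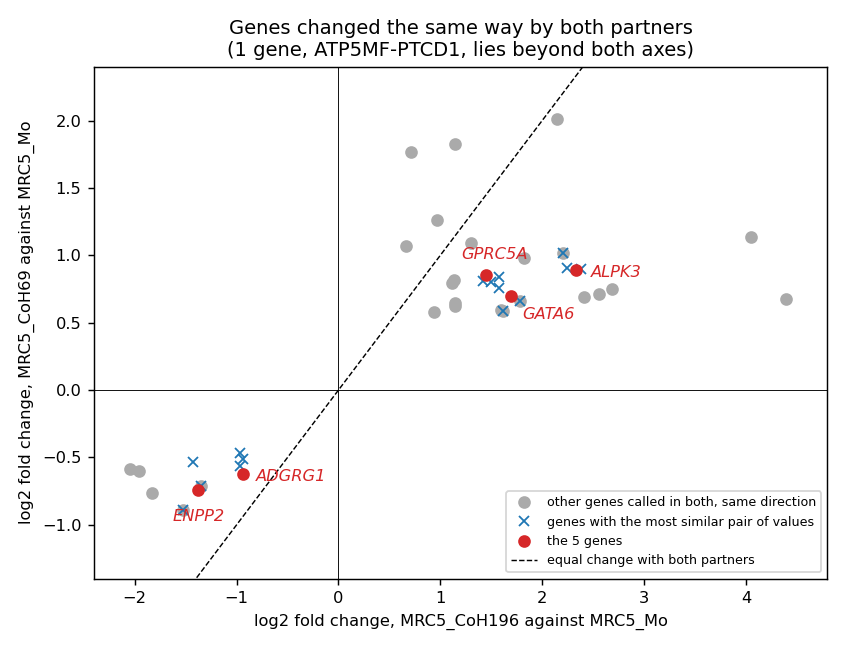
Log2 fold change with H196 (horizontal axis) against that with H69 (vertical axis) for the genes called in the same direction with both partners (grey), the 5 genes (red) and the genes nearest to them (blue crosses); 1 gene, ATP5MF-PTCD1, lies off the plot. The 5 genes lie between the horizontal axis and the dashed line of equal change.

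The shared direction by which the genes were picked did not involve the H196 libraries, so a test was run there. Earlier results of these data were known when the genes were chosen, so the p-values may not be independent of that choice. Of the 5 genes, ADGRG1, GATA6 and GPRC5A passed the filter on low counts in the H196 table, ALPK3 did not, and ENPP2 was not analysed here in H196 cells. GPRC5A was at 24.4, 23.6 and 22.9 CPM in H196_Mo and at 34.9, 38.1 and 35.3 CPM in H196_Co. The groups did not overlap, and all 3 co-cultured libraries were higher. Its log2 fold change was 0.61 (SE 0.080), which was called by edgeR's quasi-likelihood test (adjusted p = 1.72e-05), as were 3.86% of the 12806 tested genes, 3.26% higher and 0.601% lower. The libraries did not overlap for 37.2% of the tested genes. The change lay close to the limit of 0.58 and fell short of it without H196_Co replicate 2 (0.57, adjusted p = 5.85e-05) and on log2(FPKM + 1) (0.44, adjusted p = 0.00385 by limma). Thus GPRC5A RNA was higher after co-culture in both cell lines, as a test in H196 and as a description in MRC5, and whether the size differs between the lines was not tested.

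GATA6 was at 21.1, 16.7 and 19.2 CPM in H196_Mo and at 20.3, 17.7 and 18.5 CPM in H196_Co. The groups overlapped fully. The log2 fold change was -0.01 (95% interval -0.20 to 0.18, adjusted p = 0.950). Whether it differs from the changes in MRC5, by which GATA6 was chosen, was not tested. ADGRG1 was at 2.26, 1.86 and 1.82 CPM in H196_Mo and at 2.97, 2.16 and 2.01 CPM in H196_Co. These groups overlapped too, with H196_Co replicate 1 above the other libraries, and the log2 fold change was 0.26 (95% interval -0.15 to 0.68, adjusted p = 0.406). ALPK3 had 1 to 6 counts per H196 library, 11 in all in each group, and no difference was detectable at this depth.

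**Figure D5:**
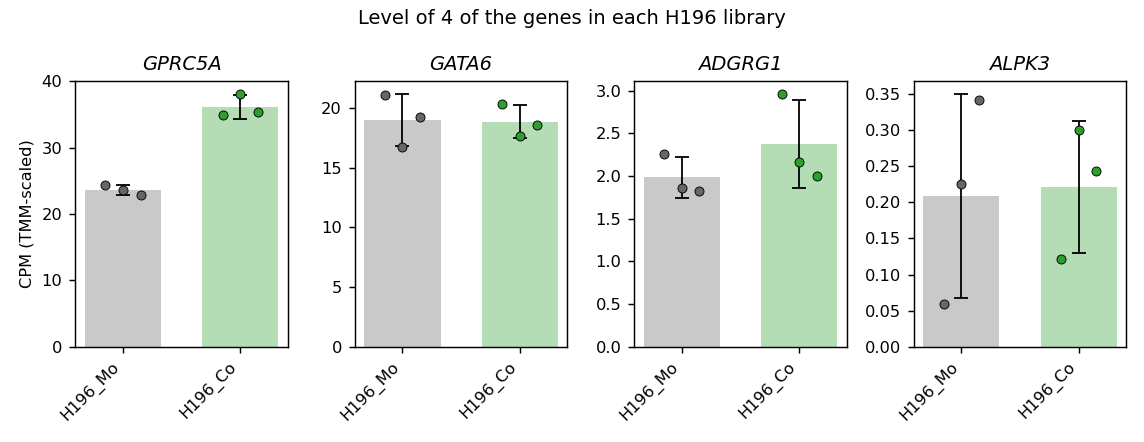
TMM-scaled CPM (vertical axis, from 0) of 4 of the genes in H196_Mo and H196_Co. Points are libraries, bars are means and error bars are 1 SD over 3 libraries; GPRC5A is higher in all 3 H196_Co libraries, and the groups overlap for the others.

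Levels per gene length in the 2 lines are set side by side without a test, since the tables were made separately. GATA6 was at 5.84 ± 0.760 FPKM in H196_Mo, above GPRC5A at 3.85 ± 0.181 FPKM, the reverse of their order in MRC5_Mo. In H196_Co they were at 5.48 ± 0.318 and 5.58 ± 0.357 FPKM, and their libraries overlapped. ADGRG1 was at 0.55 ± 0.0781 FPKM in H196_Mo against 7.33 FPKM in MRC5_Mo, and ALPK3 at 0.02 ± 0.01 FPKM. Among the lists in H196_Co against H196_Mo, CRABP2 (log2 fold change 1.06, adjusted p = 2.71e-07) and RARA, a retinoic acid receptor (0.79, adjusted p = 7.47e-06), were the 2 called of 13 retinoic acid genes. Of all tested genes 3.86% were called in that comparison. MYOM1 rose by 0.88 (adjusted p = 0.00568) among 8 genes of the M-band list, a call that was lost on log2(FPKM + 1). MEF2C, a MADS-box factor, fell by 0.95 (adjusted p = 1.39e-08) among 12 genes of the GATA list. No gene of the LPA list (8 tested), of the adhesion receptors (8) or of the ADGRG1 ligands and effectors (9) was called there by edgeR, DESeq2 or limma, with 1, 4 and 4 genes at an unadjusted p under 0.05. Leaving out 1 library brought calls among the adhesion receptors, ADGRB2 without H196_Co replicate 2 or H196_Mo replicate 2 (0.62 to 0.63) and ADGRA2 without H196_Mo replicate 3 (0.60).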

How the data were processed

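The authors filtered reads with SOAPnuke, aligned them to GRCh38.p13 with HISAT and to the reference genes with Bowtie2, and deposited 1 table per cell line. The submitters' notes also name HISAT2 2.1.0, Bowtie2 2.3.4.3 and RSEM 1.3.1. The deposited expected counts are not normalized, and 93.7% (MRC5) and 92.1% (H196) of values were whole. The authors' FPKM values are scaled by gene length and fragment total, to 2 decimals, so the depth behind each FPKM comes from the counts. Columns of TPM and normalized counts (18 for MRC5, 12 for H196), a second copy of each table and the authors' own fold changes, p-values and q-values were not used. The strand in the tables was not used.

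Expected counts were rounded and fitted in R 4.3.3 with edgeR 4.0.16 (TMM, filterByExpr, quasi-likelihood, two-sided), the 9 MRC5 libraries in 1 model and the 6 H196 libraries in another, leaving 12819 of 16382 and 12806 of 16076 genes. Adjustment was over all genes tested. The script was tested on simulated data. The named genes are the 5 genes, up to 4 called genes of largest change per list, the 3 genes nearest to each of the 5 in their pair of changes, and DHRS3. The members and lists were chosen with earlier results of these data known. Alternatives used DESeq2 1.42.0, other filters and limits, limma 3.58.1 on FPKM with pseudocounts of 1 and 0.1, a replicate block, a fit of the compared groups alone, and leaving out each library. No 2 replicates were alike within sampling noise. Promoter windows are from RefSeq (GRCh38.p14). The results of some listed genes are not reported here.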

Additional observations from a re-analysis of the deposited data

How the results depend on the processing

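All 5 genes kept their direction with both partners, and the larger change with H196, under all 17 alternatives run on the MRC5 libraries. All 5 were called with H196 under 16 of the 17, and with H69 under 9 of the 17, the lowest being 1 gene on log2(FPKM + 1). ALPK3 was not called with H69 under 8, ADGRG1 and GATA6 under 2 each and ENPP2 under 1, while GPRC5A was called under all 17. The number of genes called in the same direction with both partners ran from 8 on log2(FPKM + 1) to 46 without MRC5_Mo replicate 1. Without a limit on the fold change, 9522 genes were called in MRC5_CoH196 against MRC5_Mo, 859 in MRC5_CoH69 against MRC5_Mo, 9269 in MRC5_CoH196 against MRC5_CoH69 and 2538 in H196_Co against H196_Mo. With a limit of 1 these were 1564, 9, 1353 and 147. In MRC5_CoH69 against MRC5_Mo, 71 genes were called by edgeR, 44 by a DESeq2 Wald test and 18 by limma on log2(FPKM + 1), and in H196_Co against H196_Mo edgeR called 494 and limma on log2(FPKM + 1) 195. On that scale higher genes were 94.4% of the calls with H69 (76.1% in edgeR) and 32.0% of those between the partners (53.7%), and on log2(FPKM + 0.1) 73.4% of those in H196 (84.4%). The cause was not tested. GATA6 in H196_Co against H196_Mo, at -0.01, ran from -0.097 to 0.069 when 1 library was left out, turning to 0.069 without H196_Mo replicate 1 and to 0.029 without H196_Co replicate 2. GPRC5A there was at 0.53 (adjusted p = 0.00362) by limma on log2(FPKM + 0.1), short of the limit. Same-numbered replicates did not deviate together (r from -0.12 to 0.08 in MRC5 and -0.15 to 0.03 in H196), and 0 libraries correlated best with their own number. With the replicate number as a block, 4088, 70, 3612 and 471 genes were called in the 4 comparisons, and no call of the 5 genes changed.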
